A study of Mus musculus with 39 samples.

Results

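The 10 genes described here are 3 ligands of the bone morphogenetic protein (BMP) pathway, *Bmp2*, *Bmp4* and *Bmp7*, 5 transcriptional regulators that BMP signals switch on, *Id1*, *Id2*, *Id3*, *Msx1* and *Msx2*, and 2 feedback inhibitors, *Bambi* and *Smad7*. They were taken by name from the 47643 genes listed in the count tables. Their RNA was measured by bulk RNA-seq in 35 single mouse epiblasts and in 4 lines of epiblast stem cells (EpiSCs). The embryos came from crosses of *Stat3* heterozygous mice on the CD1 background and were either wild type (WT) or *Stat3* null. In the null allele a neomycin resistance gene replaces a run of *Stat3* exons in every cell, and reads from exons outside that run still count for the gene. There were 2 WT and 4 null epiblasts at embryonic day (E) 5.5, 9 WT and 8 null at E6.5, and 9 WT and 3 null at E7.5. Each epiblast was freed by hand from the extraembryonic ectoderm, which served for genotyping, and the visceral endoderm. The EpiSCs were 2 WT and 2 null lines, 1 library each, grown with FGF2, activin A and the tankyrase inhibitor XAV-939, and they were prepared with another library kit, so they were never fitted together with the epiblasts.

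BMP ligands are secreted dimers of the TGF-β family that bind pairs of type I and type II receptors, which phosphorylate SMAD1, SMAD5 and SMAD9. These enter the nucleus with SMAD4 and bind GC-rich elements of the form GGCGCC beside CAGAC sites. *Id1*, *Id2* and *Id3* encode proteins that hold basic helix-loop-helix factors off DNA, and *Msx1* and *Msx2* encode homeobox repressors. *Bambi* encodes a pseudoreceptor without a kinase domain, and *Smad7* encodes an inhibitory SMAD that blocks the receptors of both the BMP and the activin branch. Around gastrulation *Bmp4* is known from the extraembryonic ectoderm and later the extraembryonic mesoderm, where it acts on the neighbouring epiblast to induce mesoderm and primordial germ cells, and *Bmp2* is known from the visceral endoderm.

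In GRCm38, *Bmp2* lies on chromosome 2 from 133552159 to 133562885, *Bmp7* on the same chromosome from 172868012 to 172940321 and *Id1* from 152736251 to 152737410. *Bmp4* lies on chromosome 14 from 46383520 to 46390669, *Id2* on chromosome 12 from 25093799 to 25097140 and *Id3* on chromosome 4 from 136143497 to 136145755. *Msx1* lies on chromosome 5 from 37820485 to 37824583, and *Msx2* on chromosome 13 from 53466884 to 53473074, and no position is given here for *Bambi* and *Smad7*. No member had a near-identical copy among the other annotated transcripts. *Bmp4* overlaps 2 genes on the opposite strand, *Gm15217* and *Gm15222*, whose median was 0 CPM. CPM are read counts scaled to a common library total by the TMM method.

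RefSeq promoter windows (GRCm38.p6) were at hand for *Bmp4*, *Id2*, *Id3*, *Msx1* and *Msx2*. The 250 bases before the start site are shown for *Bmp4* (chr14:46390670-46390919, minus strand) and *Msx1* (chr5:37824586-37824835, minus strand), a ligand and a target that rose together between the last 2 stages in WT epiblasts and whose windows hold no annotated exon, and for *Id2* and *Id3* only the short stretches around a motif, which stands in capitals.
Bmp4: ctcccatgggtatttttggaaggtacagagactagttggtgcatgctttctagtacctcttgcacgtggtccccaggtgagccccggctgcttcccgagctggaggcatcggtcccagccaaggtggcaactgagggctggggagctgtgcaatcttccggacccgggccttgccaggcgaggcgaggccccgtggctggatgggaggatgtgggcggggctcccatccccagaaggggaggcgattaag
Msx1: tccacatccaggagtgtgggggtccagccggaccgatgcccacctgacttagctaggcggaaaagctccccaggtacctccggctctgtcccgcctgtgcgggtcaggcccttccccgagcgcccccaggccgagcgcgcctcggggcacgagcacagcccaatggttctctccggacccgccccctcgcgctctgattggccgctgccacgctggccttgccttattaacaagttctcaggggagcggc
Id2: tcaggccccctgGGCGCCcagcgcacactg
Id3 (upstream site): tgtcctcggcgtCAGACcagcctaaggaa
Id3 (downstream site): ggacccttggcgGTCTGttttgaataagg
Read on both strands, GGCGCC occurred once in the *Id2* window (chr12:25096306-25096335) and was not among the letters of the other 4, while 9.59% of all 32851 promoter windows of this length held it. CAGAC occurred in the *Id3* window at 2 places (chr4:136143643-136143671 and, as GTCTG, chr4:136143742-136143770), in stretches that GENCODE annotates as exonic. It was in 42.2% of all windows. By GENCODE, 161 of the 250 bases of the *Id2* window and all 250 of the *Id3* and *Msx2* windows are exonic. These 3 windows lie within the annotated genes. GC content of the 5 windows lay between 61.6% and 68.0%, against a median of 52.4% over all windows.

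Total counts lay between 22941210 and 38635127 at E5.5, 27913392 and 79013960 at E6.5, 25793920 and 41655234 at E7.5, and 63445877 and 127583699 in EpiSCs. Where a gene had no count, 3 counts is the limit that a count of 0 allows, which came to between 0.0399 and 0.130 CPM in an epiblast library, for counting error only. *Stat3*, the deleted gene, was at 9.47 to 22.6 CPM in E5.5 null against 38.6 to 51.1 CPM in E5.5 WT, at 1.42 to 7.99 against 5.62 to 28.6 CPM at E6.5, at 1.24 to 1.5 against 4.69 to 24.7 CPM at E7.5, and at 3.15 to 3.5 against 18.2 to 22.8 CPM in EpiSCs. Some libraries went against their labels. The library labelled E5.5 null 1 held 0.673 CPM of the epiblast marker *Pou5f1* and 2426 CPM summed over the 10 extraembryonic ectoderm markers, and E6.5 null 1 held 1619.7 CPM of the latter. The library labelled E7.5 WT 3 held 20.3 CPM over 8 mesoderm markers, against 462 to 678 CPM in the other E7.5 WT libraries. Visceral endoderm content also varied at E6.5. The 12 visceral endoderm markers summed to 6141 CPM in E6.5 WT 3 and to 7224.5, 5059 and 4525 CPM in E6.5 null 3, 4 and 8, against 83.8 to 1736 CPM in the other E6.5 WT and 149 to 1221 CPM in the other E6.5 null libraries. At E6.5, replicates 1 to 3 of each genotype had over 40000000 counts and all others fewer. The labels do not say which embryos were littermates, and p-values measure the spread between these samples.

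Between E6.5 and E7.5 nearly the whole set rose in WT epiblasts. A gene was called where its adjusted p was under 0.05 and its absolute log2 fold change over 1, in the quasi-likelihood test of edgeR, adjusted by Benjamini and Hochberg's method over all genes tested. By this rule 9 of the 10 genes were called, against 8.83% of the 17191 genes tested. All 3 ligands, *Id1*, *Id2*, *Msx1*, *Msx2* and *Bambi* rose (8 genes, where 5.74% of all genes were called higher), and *Smad7* fell (3.09% of all genes were called lower). *Id3* was 0.61 higher on the log2 scale (standard error 0.15, adjusted p = 0.00391 from edgeR), under the fold threshold. The median log2 fold change of the 10 genes was 1.82, beside 0.01 over all genes tested. Groups did not overlap for *Bambi* and *Smad7*, where 2.38% of all genes did not overlap. In a bulk epiblast, fewer cells of a type and less RNA per cell cannot be told apart.

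**Figure D1:**
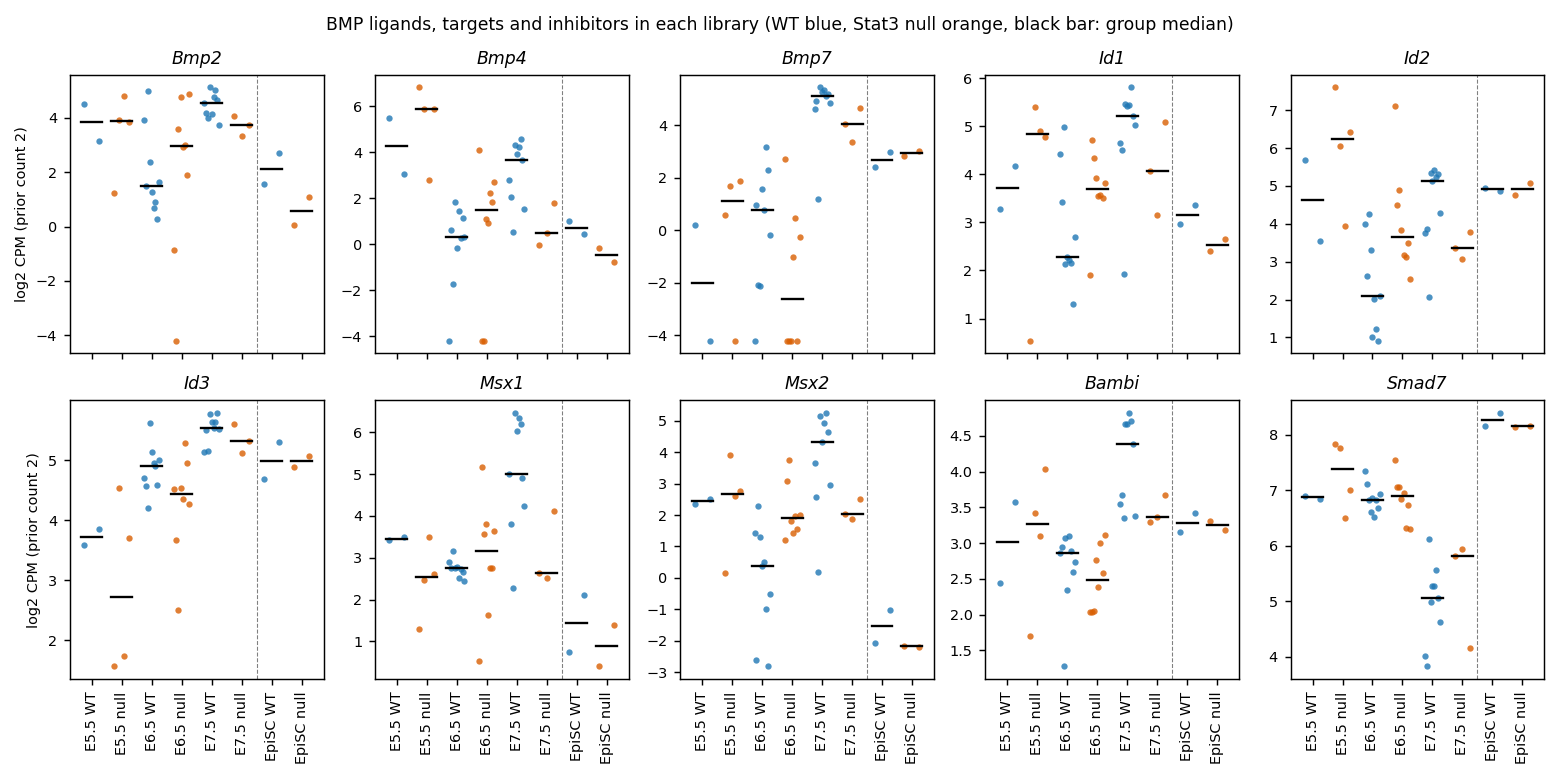
Each of the 10 panels plots 1 gene. The vertical axis gives log2 CPM (prior count 2) and the horizontal axis the group, with 1 point per library, WT in blue, *Stat3* null in orange and a black bar at the group median; the dashed line parts the separately normalized EpiSC libraries. For *Bmp7*, *Id1*, *Msx1* and *Msx2* the median bar stands highest at E7.5 WT, and the lowest point of that group is the library labelled E7.5 WT 3.

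The ligand *Bmp4* fell and then rose in WT. It was at 45.2 and 8.28 CPM in the 2 E5.5 WT epiblasts. At E6.5 its lowest WT value was 0, its median 1.18 and its highest 3.46 CPM. At E7.5 the lowest was 1.40, the median 12.4 and the highest 23.4 CPM. Every E5.5 WT library thus lay above every E6.5 WT library, whereas the E6.5 and E7.5 ranges overlapped. The fitted change came to -4.17 log2 units from E5.5 to E6.5 (standard error 0.97, adjusted p = 0.0209 from edgeR) and 2.98 from E6.5 to E7.5 (standard error 0.69, adjusted p = 0.00364 from edgeR). In the null epiblasts, *Bmp4* was at 113, 58.6, 6.80 and 59.3 CPM at E5.5, the first value being that of the library labelled E5.5 null 1. Its lowest, median and highest null values at E6.5 were 0, 2.82 and 16.9 CPM, and the highest belonged to E6.5 null 1. The 3 null epiblasts at E7.5 were at 0.927, 1.35 and 3.45 CPM, within the range of the E6.5 null epiblasts.

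*Bmp7*, which pairs with other BMPs in heterodimers, was low before E7.5. It was at 1.09 and 0 CPM in E5.5 WT and at 1.43, 3.17, 0 and 3.60 CPM in E5.5 null epiblasts. At E6.5 its lowest, median and highest values were 0, 1.66 and 8.88 CPM in WT and 0, 0.221 and 6.58 CPM in null. At E7.5 the WT values ran from 2.23 over a median of 34.2 to 43.6 CPM, and the null values were 16.3, 10.3 and 25.0 CPM. All 3 null epiblasts at E7.5 lay above every E6.5 epiblast of either genotype. In WT the rise was 3.68 on the log2 scale (standard error 0.82, adjusted p = 0.00306 from edgeR). In null it was 3.87 (standard error 1.5) and did not pass (adjusted p = 0.495 from edgeR), and it was 5.54 without E6.5 null 1 (adjusted p = 0.158 from edgeR).

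*Bmp2* varied widely within a stage. It was at 22.8 and 8.87 CPM in E5.5 WT and at 2.30, 15.3, 27.8 and 14.3 CPM in E5.5 null epiblasts. At E6.5 its lowest, median and highest values were 1.16, 2.77 and 31.7 CPM in WT and 0, 7.81 and 29.4 CPM in null. At E7.5 they were 13.3, 23.3 and 34.9 CPM in WT, and the null epiblasts were at 16.8, 10.1 and 13.2 CPM. Of the E6.5 WT libraries, E6.5 WT 1 (15.3 CPM) and E6.5 WT 3 (31.7 CPM) overlapped with E7.5 WT, and the other 7 lay between 1.16 and 5.19 CPM. The WT rise to E7.5 was 1.65 on the log2 scale (standard error 0.58, adjusted p = 0.0422 from edgeR). This call was kept in 13 of 29 fits and was lost on leaving out any 1 of E6.5 WT 2 and 4 to 9 or E7.5 WT 1, 2 and 4 to 8. Among the E6.5 WT libraries under 40000000 counts the rise was 3.15 (standard error 0.32, adjusted p = 9.94e-06 from edgeR).

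Of the Id genes, *Id3* moved one way in WT, being higher at each later stage by median. It was at 11.9 and 14.4 CPM in E5.5 WT, ran from 18.4 over a median of 30.0 to 48.9 CPM in E6.5 WT, and from 35 over 46.2 to 55.0 CPM in E7.5 WT. Both E5.5 WT libraries lay below every E6.5 WT library, and the fitted change came to 1.20 log2 units (standard error 0.31, adjusted p = 0.0283 from edgeR). The null epiblasts were at 2.91, 23.1, 3.30 and 13 CPM at E5.5, between 5.65 and 39.0 CPM with a median of 21.6 CPM at E6.5, and at 48.5, 34.7 and 39.9 CPM at E7.5. In null, *Id3* was 1.04 higher on the log2 scale at E6.5 than at E5.5 and 0.90 higher at E7.5 than at E6.5, and neither passed (adjusted p = 0.386 and 0.567 from edgeR).

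In WT, the medians of *Id1* and *Id2* were lower at E6.5 than at E5.5 or E7.5. *Id1* was at 9.60 and 17.9 CPM in E5.5 WT and at 1.40, 42.3, 29.7 and 27.5 CPM in E5.5 null, the lowest being the library labelled E5.5 null 1. At E6.5 its lowest, median and highest values were 2.42, 4.83 and 31.8 CPM in WT and 3.70, 13 and 26.2 CPM in null. At E7.5 they were 3.75, 36.9 and 56.2 CPM in WT, and the null epiblasts were at 16.8, 8.86 and 34.0 CPM. The groups overlapped at each stage. *Id1* rose by 1.74 on the log2 scale from E6.5 to E7.5 in WT (standard error 0.51, adjusted p = 0.0179 from edgeR) and was 0.46 higher in null (standard error 0.48, adjusted p = 0.97 from edgeR).

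*Id2* was at 51.6 and 11.7 CPM in E5.5 WT and at 195, 66.2, 15.4 and 85.7 CPM in E5.5 null epiblasts. Its lowest, median and highest values at E6.5 were 1.83, 4.24 and 19.2 CPM in WT and 5.82, 12.7 and 139 CPM in null, where E6.5 null 1 gave the highest. At E7.5 they were 4.11, 35.3 and 42.6 CPM in WT, with 10.3, 8.37 and 13.6 CPM in the null epiblasts. Of the WT libraries at E7.5, 8 lay between 13.5 and 42.6 CPM and E7.5 WT 3 at 4.11 CPM, and the highest null value was just above the lowest of those 8. *Id2* rose by 1.90 on the log2 scale in WT (standard error 0.52, adjusted p = 0.011 from edgeR). In null it was 1.5 lower at E7.5 than at E6.5 (log2 fold change -1.5, standard error 0.93, adjusted p = 0.789 from edgeR), and 0.43 lower without E6.5 null 1 (log2 fold change -0.43, adjusted p = 0.964 from edgeR).

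The homeobox genes varied widely among the E7.5 WT epiblasts. *Msx1* was at 10.6 and 11.1 CPM in E5.5 WT and at 2.38, 5.47, 11.2 and 6.10 CPM in E5.5 null. In E6.5 WT it kept within 5.42 to 8.95 CPM with a median of 6.66 CPM, whereas E6.5 null epiblasts ran from 1.38 over 9.25 to 35.8 CPM. In E7.5 WT it ran from 4.81 over 32.1 to 88.4 CPM, and E7.5 null epiblasts were at 6.16, 5.65 and 17.3 CPM. The 5 libraries E7.5 WT 1, 4, 5, 6 and 7 lay above every null value at E7.5, as did E7.5 WT 8 and 9, while E7.5 WT 2 (14.0 CPM) and E7.5 WT 3 (4.81 CPM) did not. *Msx1* rose by 2.74 on the log2 scale in WT (standard error 0.42, adjusted p = 0.000152 from edgeR) and differed by -0.26 in null (standard error 0.75, unadjusted p = 0.735 from edgeR).

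*Msx2* was at 5.01 and 5.69 CPM in E5.5 WT and at 1.06, 14.9, 6.01 and 6.67 CPM in E5.5 null epiblasts. At E6.5 its lowest, median and highest values were 0.0874, 1.23 and 4.87 CPM in WT and 2.26, 3.67 and 13.4 CPM in null. At E7.5 they were 1.09, 20.2 and 38.0 CPM in WT, and the null epiblasts were at 4.03, 3.63 and 5.65 CPM. Without E7.5 WT 3 the lowest E7.5 WT value was 5.93 CPM, just above the highest null one. *Msx2* rose by 3.64 on the log2 scale in WT (standard error 0.73, adjusted p = 0.00132 from edgeR) and differed by -0.22 in null (standard error 0.62, unadjusted p = 0.729 from edgeR).

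The inhibitors moved in opposite directions. *Bambi* was at 5.36 and 11.9 CPM in E5.5 WT, at 3.19, 10.7, 8.55 and 16.3 CPM in E5.5 null, and at E6.5 between 2.37 and 8.51 CPM in WT (median 7.21) and between 4.05 and 8.63 CPM in null (median 5.56). At E7.5 it ran from 10.2 over 20.8 to 28.2 CPM in WT and was at 9.79, 10.3 and 12.7 CPM in null. Every E7.5 library lay above every E6.5 library. The log2 rise was 1.52 in WT (standard error 0.26, adjusted p = 0.000226 from edgeR) and 0.89 in null (standard error 0.37, adjusted p = 0.533 from edgeR).

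Per kilobase of exon, *Smad7* had the highest median of the members in each group before E7.5. It was at 119 and 115 CPM in E5.5 WT, at 227, 218, 90.3 and 128 CPM in E5.5 null, and at E6.5 between 91.9 and 163 CPM in WT (median 114) and between 78.7 and 187 CPM in null (median 119). At E7.5 it ran from 14.1 over 33.2 to 69.8 CPM in WT, the highest being E7.5 WT 3, and was at 56.4, 61.7 and 17.8 CPM in null. No E7.5 library of either genotype reached the lowest E6.5 value of 78.7 CPM. The log2 fold change was -1.77 in WT (standard error 0.24, adjusted p = 4.96e-05 from edgeR) and -1.41 in null (standard error 0.35, adjusted p = 0.179 from edgeR).

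**Figure D2:**
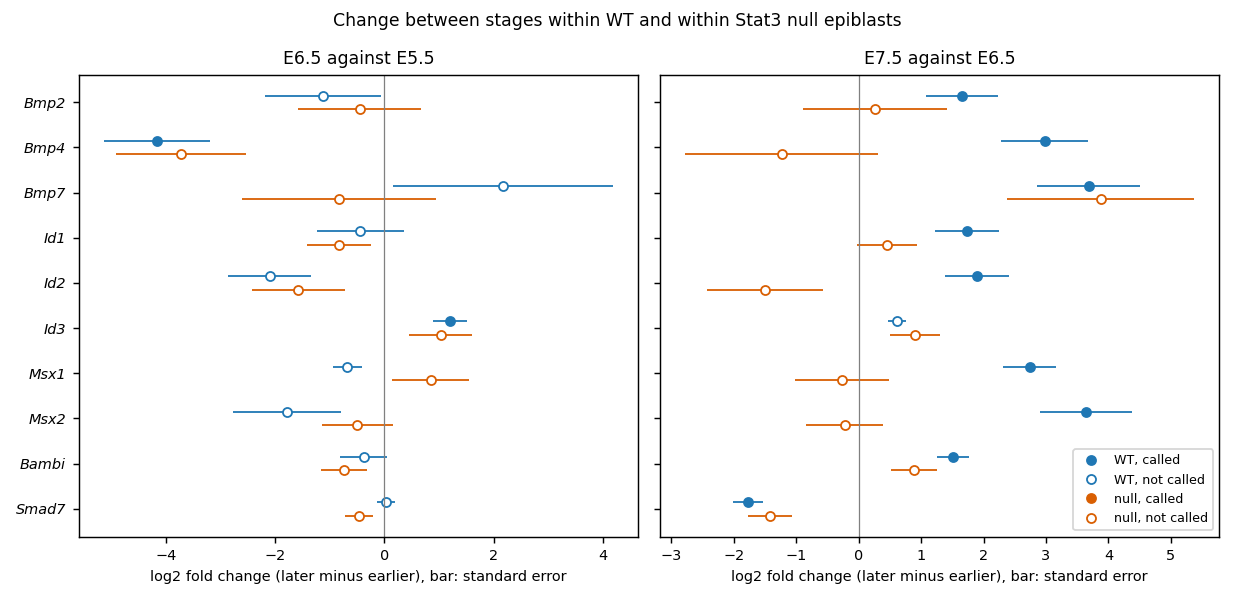
The horizontal axes give the log2 fold change of each gene from E5.5 to E6.5 (left) and from E6.5 to E7.5 (right), WT in blue and *Stat3* null in orange, with bars for 1 standard error and filled points for called genes. On the right the 9 filled WT points stand away from 0, whereas the null points of *Bmp4*, *Id2*, *Msx1* and *Msx2* lie on the other side of 0 from WT and none is filled.

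From E5.5 to E6.5, 2 of the 10 genes were called in WT, *Bmp4* lower and *Id3* higher, where 5.15% of 20763 genes were called. The *Bmp4* call was lost without E5.5 WT 1, and that of *Id3* without E5.5 WT 1 or 2 or E6.5 WT 5, 6, 7 or 9, while without E6.5 WT 3 *Id2* was also called lower (-2.48, adjusted p = 0.034 from edgeR). Among the 6 E6.5 WT libraries under 40000000 counts, the depth class of both E5.5 WT libraries, 6 members were called, where 13.5% of genes were: *Bmp2* (log2 fold change -2.66), *Bmp4* (-3.82), *Id1* (-1.63), *Id2* (-2.99) and *Msx2* (-2.39) were lower and *Id3* (1.33) was higher. The visceral endoderm markers summed to 6258 and 7538 CPM in the E5.5 WT libraries, to 83.8 to 968 CPM in the 6 shallower E6.5 WT libraries and to 442 to 6141 CPM in the 3 deeper ones, and their part in the result was not tested. The extraembryonic ectoderm markers summed to 801 and 152 CPM at E5.5 and to 29.3 to 131 CPM at E6.5. In the 2 E5.5 WT libraries *Bmp4* was 45.2 CPM beside the higher of these sums and 8.28 CPM beside the lower. In null epiblasts the extraembryonic ectoderm markers summed to 2426, 837, 244 and 756 CPM at E5.5 and to 43.0 to 1619.7 CPM at E6.5. At E5.5 *Bmp4* was highest (113 CPM) beside the highest of these sums and lowest (6.80 CPM) beside the lowest. The visceral endoderm markers summed to 44.4, 10654.5, 12326 and 7683 CPM at E5.5 and to 149 to 7224.5 CPM at E6.5. The part of these sums was not tested. In null epiblasts 0 of 10 members were called from E5.5 to E6.5, where edgeR called 1.98% and DESeq2 4.27% of genes. *Bmp4* alone had an unadjusted p under 0.05 (log2 fold change -3.73, adjusted p = 0.109 from edgeR), as did 18.3% of all genes. DESeq2 called 0 members. Without the library labelled E5.5 null 1 edgeR gave log2 fold changes of -3.21 for *Bmp4* (adjusted p = 0.208, standard error 1.29), -1.20 for *Id1* (adjusted p = 0.111) and -0.88 for *Id2* (adjusted p = 0.722), and 0 members were called. Without E6.5 null 1, *Bmp4* and *Id2* were called lower (log2 fold changes -4.50 and -2.65), where 723 of 17987 genes were called. They were also called lower among the E6.5 null libraries under 40000000 counts, where 7.76% of genes were called. Both of these runs left out E6.5 null 1 but kept the library labelled E5.5 null 1.

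The WT rise from E6.5 to E7.5 was the same set of 9 calls without E6.5 WT 3 and E7.5 WT 3 together, where 12.5% of genes were called, and among the E6.5 WT libraries under 40000000 counts, where 10.8% were. Over the same interval the epiblast markers fell (5 of 7 called lower), and 5 of 8 mesoderm, 2 of 7 tested extraembryonic ectoderm and 2 of 12 visceral endoderm markers were called higher. The mesoderm sum was 12.7 to 187 CPM in E6.5 WT and 20.3 to 678 CPM in E7.5 WT. The part of these markers in the members' rise was not tested. In null epiblasts 0 members were called over this interval by edgeR, where 0.103% of genes were called, and DESeq2 called *Smad7*, where it called 1.13% of genes. *Bmp7*, *Id3*, *Bambi* and *Smad7* had an unadjusted p under 0.05 from edgeR, 4 of 10 where 8.13% of all genes did.

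At E7.5 the null epiblasts were compared with WT of the same embryonic day. The paper reports that null epiblasts are delayed in development, so genotype and developmental stage cannot be told apart in this contrast. The 9 genes other than *Smad7* were all lower in null by the fitted fold change, with a median over the 10 members of -0.79 beside -0.02 over all genes, and 0 of 10 were called by edgeR, where 1.17% of 19680 genes were. With the replicate number as a block, *Id1*, *Id2*, *Id3* and *Bmp7* turned to the other side of 0 (0.25, 0.17, 0.11 and 0.23). *Bmp4* had the largest difference (log2 fold change -2.57, standard error 0.86), followed by *Msx1* (-2.20, standard error 0.88), *Msx2* (-2.11, standard error 0.86) and *Id2* (-1.32, standard error 0.59). *Bmp2* and *Bambi* each differed by -0.76. These 6 had an unadjusted p under 0.05 from edgeR, as did 19.7% of all genes, and adjusted p between 0.121 and 0.242. DESeq2 called *Bmp4*, *Msx1* and *Msx2*, where it called 3.58% of genes. For no member did the null and the WT libraries fail to overlap, where 3.81% of genes did not overlap.

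In the edgeR test the calls depended on whether the library labelled E7.5 WT 3 was included. Without it *Bmp4* (log2 fold change -2.72, standard error 0.71, adjusted p = 0.0232 from edgeR), *Msx2* (-2.27, standard error 0.58, adjusted p = 0.0217) and *Id2* (-1.47, standard error 0.39, adjusted p = 0.023) were called, 3 of 10 where 5.68% of genes were called. *Bmp7* then passed on the adjusted p but not on size (log2 fold change -0.98, adjusted p = 0.0104 from edgeR). *Msx2* was then the single member whose groups did not overlap, where 13.6% of genes did not. The 3 null libraries also differed from WT in their marker sums. The visceral endoderm sum was 58.9 to 317 CPM in null and 469 to 4591 CPM in WT, with 3 of 12 markers called lower, and the extraembryonic ectoderm sum was 34.8 to 47.0 CPM in null and 43.4 to 188 CPM in WT, with 1 of 8 tested markers called lower. The mesoderm sum was 103 to 414 CPM in null and, without E7.5 WT 3, 462 to 678 CPM in WT, with 0 of 8 called by edgeR. No marker of these 3 lists was at 0 in either group, and their part in the members' differences was not tested.

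**Figure D3:**
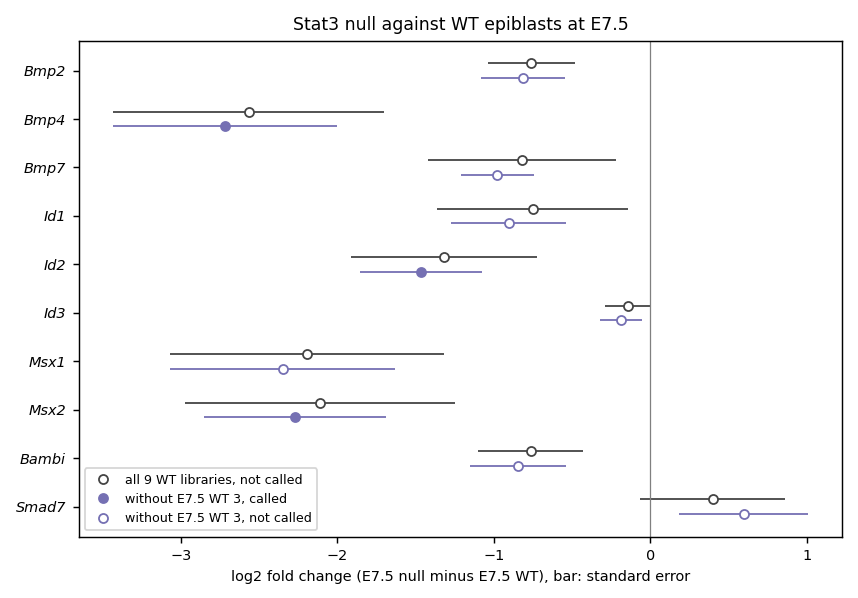
The horizontal axis gives the log2 fold change of E7.5 null against E7.5 WT epiblasts for each gene, with bars for 1 standard error, grey with all 9 WT libraries and violet without the library labelled E7.5 WT 3; filled points are called. Each estimate moves by less than its bar, and without that library *Bmp4*, *Id2* and *Msx2* are called.

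The change from E6.5 to E7.5 was compared between the genotypes by an interaction term fitted over all 35 epiblast libraries, with a call at an adjusted p under 0.05. By edgeR 0 of 10 members were called, where 0.29% of 24126 genes were. *Msx1* (-3.0 on the log2 scale, standard error 0.88, adjusted p = 0.107), *Msx2* (-3.87, standard error 1.16, adjusted p = 0.112), *Id2* (-3.39, standard error 1.16, adjusted p = 0.167) and *Bmp4* (-4.21, standard error 1.62, adjusted p = 0.221) had negative estimates, a rise in WT set against a lower E7.5 estimate in null, and were the 4 of 10 with an unadjusted p under 0.05, as for 13.4% of genes. *Msx1* and *Msx2* passed without E7.5 WT 3 (-3.15 and -4.03, adjusted p = 0.0313 and 0.0394 from edgeR), where 2.1% of genes did. DESeq2 called *Id2*, *Msx1* and *Msx2*, where it called 2.02% of genes. Without E6.5 null 1 the estimates were -3.17 for *Msx1*, -3.98 for *Msx2*, -2.33 for *Id2* and -3.46 for *Bmp4* (adjusted p from edgeR between 0.0847 and 0.307), and 0 members were called. Without E6.5 WT 3 *Msx2* was called (-4.33, adjusted p = 0.0435 from edgeR). For *Bmp7* the estimate was 0.17 (standard error 1.68), moving to 1.86 without E6.5 null 1 (standard error 1.54), and for *Smad7* 0.35 (standard error 0.43).

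The E7.5 null epiblasts were also set beside E6.5 WT, a stage earlier, which shares its libraries with the comparisons above. By edgeR 0 of 10 members were called, where 0.162% of 19749 genes were. *Smad7* (log2 fold change -1.39, standard error 0.30, adjusted p = 0.0816), *Bmp7* (2.83, standard error 1.09, adjusted p = 0.455) and *Bambi* (0.73, standard error 0.31, adjusted p = 0.492) had an unadjusted p under 0.05, as did 8.87% of genes, and these 3 of 10 had groups that did not overlap, as for 4.46% of genes. DESeq2 called *Smad7*, where it called 0.944% of genes. With the 6 shallower E6.5 WT libraries alone, *Bmp2* (log2 fold change 2.38, adjusted p = 0.00689 from edgeR) and *Id1* (2.12, adjusted p = 0.00976) were called higher in E7.5 null, where 0.969% of genes were called. *Bmp4* then differed by -0.02 (standard error 0.54).

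At E6.5, 0 of 10 members were called between null and WT by edgeR or by DESeq2, where the former called 0% of 17095 genes and the latter 0.1%. *Id2* was 2.06 higher on the log2 scale in null (standard error 0.67, adjusted p = 0.428 from edgeR) and *Msx2* 1.74 higher (standard error 0.67, adjusted p = 0.481 from edgeR). Both had an unadjusted p under 0.05, as did 8.27% of genes. Without E6.5 null 1 the difference of *Id2* was 1.0. Among the 5 null and 6 WT libraries under 40000000 counts, *Id1* was called higher in null (log2 fold change 1.51, standard error 0.21, adjusted p = 0.0148 from edgeR), 1 member where 0.0899% of genes were called. There every null library lay between 11.4 and 15.1 CPM and every WT library between 2.42 and 6.46 CPM. In the 3 deeper libraries of each genotype the difference was -0.35 (standard error 0.73). The visceral endoderm sum was 427 to 5059 CPM in the 5 shallower null libraries and 83.8 to 968 CPM in the 6 shallower WT ones, and its part was not tested.

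At E5.5, 0 of 10 members were called by edgeR or DESeq2, where these called 0% of 18690 genes and 0.121% of genes. No member had an unadjusted p under 0.05, as 2.5% of all genes did. Fitted log2 fold changes of the members ran from -0.79 for *Msx1* to 1.90 for *Bmp7*. With the library labelled E5.5 null 1 left out, 0 members were called and the *Id1* difference moved from 0.87 to 1.26 (standard error 0.36). With 2 WT epiblasts the precision at this stage is low. The extraembryonic ectoderm sum was 244 to 2426 CPM in null and 152 to 801 CPM in WT. The visceral endoderm sum was 44.4 to 12326 CPM in null and 6258 to 7538 CPM in WT. Their part was not tested.

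*Bmp4* was set beside the extraembryonic ectoderm markers and *Bmp2* beside the visceral endoderm markers, the tissues these ligands are known from, and *Id1* beside both ligands. Each relation was computed on log2 values within E6.5 WT, E6.5 null and E7.5 WT, 12 relations in all, with two-sided exact permutation tests over pairings. In the 9 E7.5 WT epiblasts *Bmp4* followed the extraembryonic ectoderm sum (Pearson's r = 0.955, exact permutation p = 0.000187, adjusted p = 0.00225; Spearman's rho = 0.917, exact permutation p = 0.00131). Without the 2 libraries farthest from the median sum, E7.5 WT 2 and 3, r was 0.948. Other marker sums varied along with *Bmp4* in these epiblasts. *Bmp4* and the visceral endoderm sum were both lowest in E7.5 WT 3 (469 CPM of markers) and highest in E7.5 WT 7 (4591 CPM). The mesoderm sum was lowest and highest in the same libraries (20.3 and 678 CPM). The epiblast sum was highest in E7.5 WT 3 (1638 CPM). *Bmp4* was not tested against these sums, so its relation is not shown to be particular to the extraembryonic ectoderm. *Id1* followed *Bmp4* in the same epiblasts (r = 0.842, exact permutation p = 0.0012, adjusted p = 0.00482; rho = 0.950, exact permutation p = 0.000353) and r was 0.976 without E7.5 WT 3 and 9. *Id1*, too, was lowest in E7.5 WT 3 (3.75 CPM) and highest in E7.5 WT 7 (56.2 CPM), and it was not tested against the marker sums. In E6.5 WT the sign was the opposite, with r = -0.785 between *Id1* and *Bmp4* (exact permutation p = 0.0145, adjusted p = 0.0248; rho = -0.717, exact permutation p = 0.0369). That relation rested on E6.5 WT 1 and 3, without which r was -0.32, and among the 6 shallower libraries it was -0.38. In E6.5 null epiblasts r was -0.801 (exact permutation p = 0.00521, adjusted p = 0.0125; rho = -0.714, exact permutation p = 0.0576) and -0.80 without E6.5 null 2 and 3, both at 0 counts of *Bmp4* (exact permutation p = 0.0931; rho = -0.314, exact permutation p = 0.564), which no longer passed. E6.5 null 1, which stayed in both, held the highest *Bmp4* (16.9 CPM) and the lowest *Id1* (3.70 CPM) of the group. The relation without that library was not computed.

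*Bmp2* followed the visceral endoderm sum in E7.5 WT (r = 0.826, exact permutation p = 0.00761, adjusted p = 0.0152; rho = 0.783, exact permutation p = 0.0172), and without E7.5 WT 3 and 7 r was 0.780 and no longer passed (exact permutation p = 0.0444, adjusted p = 0.133). In E6.5 WT r was 0.914 (exact permutation p = 0.0012, adjusted p = 0.00482; rho = 0.683, exact permutation p = 0.0503), a relation that rested on E6.5 WT 1 and 3, without which r was 0.62 (exact permutation p = 0.141). In E6.5 null epiblasts r was 0.709 (exact permutation p = 0.0443, adjusted p = 0.0665; rho = 0.833, exact permutation p = 0.0154). The 3 E7.5 null epiblasts held 10.1 to 16.8 CPM of *Bmp2* with visceral endoderm sums of 58.9 to 317 CPM, whereas the 6 E6.5 WT libraries with sums of 83.8 to 442 CPM held 1.16 to 3.05 CPM. *Id1* followed *Bmp2* in E6.5 WT (r = 0.904, exact permutation p = 0.00233, adjusted p = 0.00698; rho = 0.717, exact permutation p = 0.0369), again through E6.5 WT 1 and 3 (r = 0.49 without them). The test was not passed in E6.5 null (r = 0.0344, exact permutation p = 0.92) or in E7.5 WT (r = 0.527, exact permutation p = 0.13; rho = 0.750, exact permutation p = 0.0255, adjusted p = 0.0612). For *Bmp4* and its marker sum no relation passed at E6.5 (r = -0.355 in WT, exact permutation p = 0.327, and 0.271 in null, exact permutation p = 0.522).

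**Figure D4:**
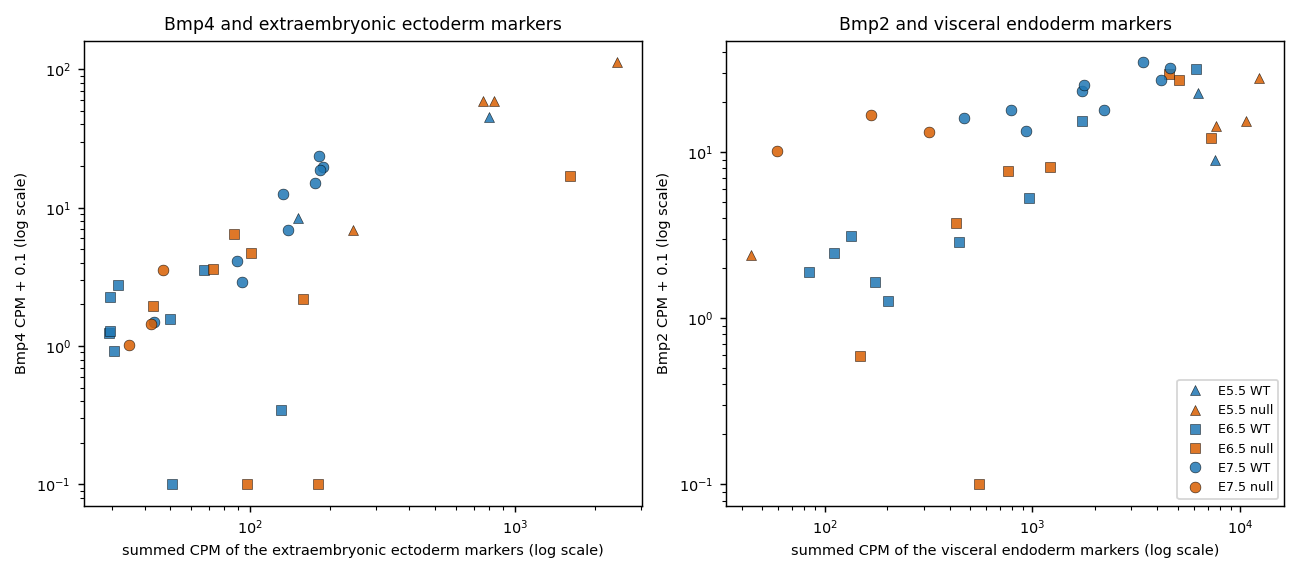
Each point is 1 epiblast library, WT in blue and *Stat3* null in orange, with triangles for E5.5, squares for E6.5 and circles for E7.5; both axes are logarithmic, and 0.1 was added to the ligand's CPM so that libraries at 0 can be shown. Among the blue circles both panels climb from lower left to upper right, and in the *Bmp4* panel the 3 orange circles (34.8 to 47.0 CPM of markers) lie beside the lowest blue one, E7.5 WT 3 (43.4 CPM).

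Per kilobase of exon, the order of the members changed between stages. In E6.5 WT *Smad7* had the highest median (25.1 CPM per kilobase), then *Id3* (16.7) and *Id1* (4.17), and the 3 ligands lay between 0.414 and 0.778 CPM per kilobase. In E7.5 WT *Id1* (31.8 CPM per kilobase) and *Id3* (25.8) led, followed by *Id2* (14.5), *Msx1* (10.4), *Bmp7* (8.52), *Smad7* (7.34), *Bmp2* (6.56), *Msx2* (6.15), *Bmp4* (5.52) and *Bambi* (4.09). The ranges of neighbours in this order overlapped except for *Id3* (19.5 to 30.7) and *Id2* (1.69 to 17.5). In E6.5 WT the ranges of *Smad7* (20.3 to 36.1) and *Id3* (10.3 to 27.3) overlapped too.

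Of 54 other genes of the BMP pathway, 40 could be tested between E7.5 and E6.5 in WT, and edgeR called 16 higher and 1 lower, where it called 5.74% and 3.09% of all genes. *Rgma*, a co-receptor, rose most clearly, from 5.56 ± 1.27 CPM (SD, n = 9) at E6.5 to 106 ± 38.3 CPM (SD, n = 9) at E7.5 (log2 fold change 4.23, adjusted p = 1.17e-06 from edgeR). Of 10 listed targets 9 were called higher, among them *Tfap2a* (log2 fold change 3.67), *Gata3* (3.93), *Dlx5* (6.24) and *Atoh8* (5.96). *Skil*, which encodes a SMAD corepressor, fell (log2 fold change -2.07, adjusted p = 0.000355 from edgeR). Between E5.5 and E6.5 in WT 5 of 43 tested were called by edgeR, where 5.15% of all genes were. This count was 0 without E5.5 WT 1 or with the replicate number as a block, 10 without E6.5 WT 3 and 13 with the shallower E6.5 WT libraries. The targets *Tfap2a* (log2 fold change -3.84), *Gata2* (-4.39) and *Gata3* (-4.83) and the ligand *Bmp8b* (-3.31) were lower, and the receptor *Acvr2b* (1.05) was higher. In E5.5 WT 1 and 2, *Tfap2a* was at 49.1 and 6.21 CPM and *Gata2* at 47.4 and 11.7 CPM. *Gata3* was at 34.9 and 1.21 CPM there and *Bmp8b* at 41.1 and 0.932 CPM, and in E5.5 WT 2 both lay within the E6.5 WT range. Of the 10 extraembryonic ectoderm markers, 4 were called lower in the same comparison, and their part was not tested.

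Of the pathway genes, 6 of 49 tested were called by edgeR at E7.5 between the genotypes, all lower in null, where 1.17% of all genes were called. Leaving out 1 null library at a time, this count dropped to 1 (null 1), 0 (null 2) or 2 (null 3). Leaving out any 1 of E7.5 WT 4 to 8 gave 2, and leaving out E7.5 WT 3 gave 18. It was 0 with the replicate number as a block or with all 35 libraries in 1 fit, and DESeq2 called 20 of 53. The targets were *Atoh8* (0.315 against 7.64 CPM on average, log2 fold change -4.56), *Prdm1*, which primordial germ cells require (2.33 against 13.6 CPM, -2.51), and *Dlx3* (0.491 against 5.21 CPM, -3.37). The secreted inhibitors were *Nog* (1.01 against 7.08 CPM, -2.78), *Dand5* (0.104 against 2.89 CPM, -4.73) and *Grem1*, which had 0 counts in all 3 null libraries and was at least 11.2-fold lower than the WT mean of 0.904 CPM, with 3 counts taken as the floor of each library. The null and WT libraries did not overlap for *Atoh8*, *Prdm1*, *Dlx3* and *Dand5*. By edgeR *Rgma* was the single pathway gene called for the interaction of genotype with stage (-3.18 on the log2 scale, adjusted p = 0.0242) and for E7.5 null epiblasts against the earlier WT stage (2.16, adjusted p = 0.00408). The first call was lost without E7.5 null 1 or 2, the second without E7.5 null 3, and both with the replicate block, and DESeq2 called 10 and 2 pathway genes. In E7.5 null it was at 25.1 ± 13.1 CPM (SD, n = 3). Within null epiblasts the activin and BMP antagonist *Fst* was called higher at both steps by edgeR, from 0.518 ± 0.546 CPM (SD, n = 4) to 18.7 ± 12.8 CPM (SD, n = 8) and 117 ± 20.2 CPM (SD, n = 3), and the inhibitor *Smad6* was called lower from E5.5 to E6.5 (log2 fold change -1.48). Higher *Fst* at later stages was not particular to null. In WT it was at 0.194 and 4.62 CPM at E5.5, 3.88 to 97.6 CPM at E6.5 and 39.5 to 117 CPM at E7.5. The *Fst* call at the later step was lost without any 1 of E7.5 null 1 to 3 or E6.5 null 4, 5 and 8 and with all 35 libraries in 1 fit, and both *Fst* calls were lost with the replicate block. That of *Smad6* was lost with the block and without any 1 of E5.5 null 1 and 2 or E6.5 null 4 to 8. Between null and WT, edgeR called 0 pathway genes at E5.5 and E6.5. DESeq2 called 0 at E5.5 and 1 of 49, *Rgma*, at E6.5, as did sample quality weights. Among the smallest unadjusted p at E5.5 were those of *Smad6* (1.83 on the log2 scale) and *Dlx5*. *Dlx5* had 0 counts in both WT libraries and in E5.5 null 4, and its null mean of 1.19 CPM was at least 10.2-fold higher than WT. The smallest at E6.5 belonged to *Rgma* (1.11), *Gata2* (2.95) and *Gata3* (3.29). *Gata2* was at 59.2 CPM in E6.5 null 1, at 0.0714 to 11.6 CPM in the other null and 0.204 to 5.39 CPM in the WT libraries. For *Gata3* these values were 34.6, 0.357 to 6.36 and 0 to 1.98 CPM. E6.5 null 1 held 1619.7 CPM of extraembryonic ectoderm markers, whose part was not tested.

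In EpiSCs, cultured cells of postimplantation epiblast character, *Smad7* had the highest median per kilobase of exon (284 and 336 CPM in WT, 282 and 287 CPM in null, in CPM), and *Msx2* the lowest (0.217 and 0.470 CPM in WT, 0.204 and 0.195 CPM in null). *Bmp2* was at 2.93 and 6.46 CPM in WT and at 1.02 and 2.12 CPM in null, *Bmp4* at 1.99 and 1.32 CPM against 0.861 and 0.564 CPM, and *Id1* at 7.77 and 10.2 CPM against 5.31 and 6.25 CPM. For these 3 genes and *Msx2* both null lines lay below both WT lines, 4 of 10 where the lines of 39.3% of all genes did not overlap between genotypes in either direction. The first 3 had log2 fold changes of -1.57 (standard error 0.52), -1.22 (standard error 0.39) and -0.64 (standard error 0.20), with adjusted p of 0.448, 0.38 and 0.388 from edgeR. Their unadjusted p was under 0.05, 3 of 10 where 9.09% of genes did. By edgeR 0 members were called, where 0.106% of 20736 genes were, and DESeq2 called *Bmp2*, where it called 0.678%. The other members ran from 5.29 to 8.16 CPM for *Bmp7*, 27.3 to 33.8 CPM for *Id2*, 25.6 to 39.5 CPM for *Id3*, 1.3 to 4.27 CPM for *Msx1* and 8.88 to 10.7 CPM for *Bambi*, with both genotypes overlapping. The visceral endoderm markers summed to at most 11.2 CPM in an EpiSC library. The extraembryonic ectoderm sum was 74.5 and 60.4 CPM in WT against 34.6 and 48.9 CPM in null. The mesoderm sum was 22.9 and 35.4 CPM against 12.8 and 16.3 CPM. Both were lower in both null lines, whereas the visceral endoderm and epiblast sums overlapped, and their part was not tested. Of the pathway genes edgeR called 0 of 47, and 1, *Cer1*, without EpiSC WT 13, whereas DESeq2 called 2 of 52, *Prdm1* and *Cer1*. The 3 with the smallest p in edgeR were *Prdm1* (log2 fold change -1.03), *Gata3* (-1.58) and the ligand *Gdf5* (0 counts in both null lines, at least 5.10-fold lower than the WT mean of 0.240 CPM).

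Over all 35 epiblast libraries the genes with the pattern most like that of each ligand were found by Pearson's r of log2 CPM among 15107 genes, as a description of libraries that share stage and tissue content. They were *Plekha6* (r = 0.884), *Egflam* (0.882) and *Oaf* (0.866) for *Bmp2*, *Hbegf* (0.903), *Anxa5* (0.857) and *Eng* (0.832) for *Bmp4*, and *Rab8b* (0.859), *Phldb1* (0.856) and *D430041D05Rik* (0.831) for *Bmp7*. For *Id1* they were *Colec12* (0.897), *Fgfr3* (0.884) and *Efnb1* (0.855).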

How the data were processed

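RNA of single dissected epiblasts and of EpiSC lines was sequenced as bulk libraries. The authors trimmed the reads with Trim Galore, aligned them to GRCm38 with HISAT2 and counted them per gene with StringTie, and the deposited values are these counts, whole numbers without normalization. The strand setting of the counting and the annotation version are not given in the sources used here. Positions came from GENCODE vM21, which holds 47224 of the 47643 gene IDs. Groups came from the sample labels. CPM are TMM-normalised, over the 35 epiblast libraries together and the 4 EpiSC libraries together. Each comparison was fitted on its own libraries with edgeR 4.0.16 (filterByExpr, minimum count 10, minimum total 15; robust quasi-likelihood test, two-sided) in R 4.3.3, and the interaction on all 35. Alternatives were DESeq2 1.42.0, its size factors (RLE), no filter, a minimum mean count of 50, removal of genes above 1% of counts, voom weights (limma 3.58.1), the replicate number as a block, all 35 libraries in 1 fit, depth classes at 40000000 counts and each library left out. The split by depth outside the E6.5 genotype comparison and the joint removal of both libraries numbered 3 and, for the interaction, the removal of single E6.5 libraries were chosen after seeing the data. The members and the gene lists were chosen with earlier results of these data known. Named are all members, per comparison at most 6 called pathway genes with the smallest p or, with none called, the 3 with the smallest unadjusted p, *Stat3* and *Pou5f1* as checks, and for *Bmp2*, *Bmp4*, *Bmp7* and *Id1* the 3 genes most alike in pattern with a mean of at least 1 CPM. A gene that this rule names is not reported here. Near-identical copies were sought with blastn 2.17.0 (95% identity over 200 bases and 50% of the transcript). The tests were tried on simulated data, figures were drawn with matplotlib 3.10.9, and 0 columns of other samples were present.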

Additional observations from a re-analysis of the deposited data

Results flagged for a closer look

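Of 40 pairs of a member and a group of 4 to 9 epiblasts, 6 held a library whose gap to the others was large for the group's range by Dixon's test on log2 CPM, a criterion that flags about 5% of groups by chance. The library labelled E7.5 WT 3 accounted for 3 of them: *Bmp7* was at 2.23 CPM there against 24.3 to 43.6 CPM in the other E7.5 WT epiblasts, *Id1* at 3.75 CPM against 22.8 to 56.2 CPM, and *Id2* at 4.11 CPM against 13.5 to 42.6 CPM. *Id1* was also low in the library labelled E5.5 null 1 (1.40 CPM against 27.5 to 42.3 CPM) and in E6.5 null 1 (3.70 CPM against 11.4 to 26.2 CPM), the null libraries with the highest extraembryonic ectoderm sums of their stages. *Bambi* was low in E6.5 WT 3 (2.37 CPM against 5.01 to 8.51 CPM), the E6.5 WT library with the highest visceral endoderm sum.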

How the results depend on the processing

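Of 597 alternative values for 68 single-gene results, other than those that leave out 1 library, 529 kept their direction and their side of the threshold, as did 834 of 941 that leave out 1 library. Members called in WT from E6.5 to E7.5 stayed within 1.5 times the reported 9 in each alternative run. The labels do not say whether the replicate numbers pair the samples, and the main fits did not take them as pairs. Deviations of same-numbered null and WT epiblasts correlated at 0.0226 to 0.202 at E5.5 (2 of 2 best with their own number), 0.0163 to 0.184 at E6.5 (5 of 8) and -0.189 to 0.00924 at E7.5 (0 of 3). A pairing at E5.5 and E6.5 is thus not excluded. With the number as a replicate block, 0 members were called from E5.5 to E6.5 in WT, 7 from E6.5 to E7.5 in WT, and at E7.5 in null against WT *Id2* turned to 0.17, *Id1* to 0.25, *Bmp7* to 0.23 and *Id3* to 0.11. With DESeq2, 3 members were called at E7.5 between null and WT, 1 between E7.5 and E6.5 null, 1 for E7.5 null against E6.5 WT, 3 for the interaction and 1 in EpiSCs. With sample quality weights these counts were 2 at E6.5 between null and WT, 5 from E5.5 to E6.5 in WT, 2 in null, 2 from E6.5 to E7.5 in null, 6 for E7.5 null against E6.5 WT and 3 for the interaction. All 35 libraries in 1 fit gave 1 member from E5.5 to E6.5 in each genotype. With E6.5 libraries under 40000000 counts alone, 1 was called at E6.5 between null and WT, 6 from E5.5 to E6.5 in WT, 2 in null, 2 for E7.5 null against E6.5 WT and 1 for the interaction, *Gata2* at E6.5 turned to -0.68 in null against WT, and r in E6.5 WT was 0.66 (reversed) for *Bmp4* with its markers, 0.61 for *Bmp2*, -0.38 for *Id1* with *Bmp4* and 0.56 for *Id1* with *Bmp2*. Without the 2 libraries farthest from the median, r in E6.5 WT was 0.62 for *Bmp2* with its markers, -0.32 for *Id1* with *Bmp4* and 0.49 for *Id1* with *Bmp2*, in E6.5 null -0.48 for *Bmp4* with its markers (reversed) and -0.80 for *Id1* with *Bmp4*, and in E7.5 WT 0.78 for *Bmp2*, past the threshold in none of these. With a prior count of 0.5, r of *Id1* with *Bmp2* in E6.5 null was -0.0585. Leaving out single libraries, members called ran from 0 to 3 at E7.5 between null and WT (3 without E7.5 WT 3), from 0 to 3 from E5.5 to E6.5 in WT (0 without E5.5 WT 1), from 0 to 2 in null (2 without E6.5 null 1) and from 0 to 2 for the interaction (2 without E7.5 WT 3, 1 without E6.5 WT 3). *Bmp8b* from E5.5 to E6.5 in WT ran from -4.32 to 1.11, the latter without E5.5 WT 1. The cause of these shifts was not tested. Depth limits values under 0.0399 to 0.130 CPM in an epiblast library, which a count of 0 allows.

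Counts over all genes moved more. At E7.5 between null and WT, 231 genes were called, against 1035 with DESeq2, 1198 with weights, 0 with the replicate block, and 11 with all 35 libraries. Without 1 library the count was 0 (E7.5 null 2), 20 (null 3), 31 (null 1), 47 to 155 (WT 1, 2 and 4 to 9) or 1105 (WT 3). From E5.5 to E6.5, 1070 genes in WT became 2050 with DESeq2, 2131 with weights, 101 with the block and 2698 with the shallower E6.5 libraries, and 363 in null became 1173, 1914, 2 and 1367, and 1478 with all 35 libraries. From E6.5 to E7.5, 1518 in WT became 2331 with DESeq2, 2610 with weights and 2805 without a filter, and 20 in null became 321, 437, 0 with the block, 104 with all 35 libraries and 181 with the shallower ones. For E7.5 null against E6.5 WT, 32 became 274 with DESeq2, 315 with weights, 81 with the block and 184 with the shallower libraries. For the interaction, 70 became 654 with DESeq2, 2748 with weights, 45 without a filter, 137 at a mean count of 50, 123 without the E5.5 libraries and 553 with the shallower ones. At E6.5, 0 became 30 with DESeq2 and 92 with weights, at E5.5 0 became 31 with DESeq2 and 5 with all 35 libraries, and in EpiSCs 22 became 214 with DESeq2 and 75 without a filter. Leaving out single libraries, counts ran from 102 (E5.5 WT 1) to 2029 (E6.5 WT 3) from E5.5 to E6.5 in WT, 145 (E5.5 null 2) to 723 (E6.5 null 1) in null, 0 (E7.5 null 1 or 3) to 32 (E6.5 null 1 or 3) from E6.5 to E7.5 in null, 4 (E7.5 null 3) to 88 (E6.5 WT 3) for E7.5 null against E6.5 WT, 0 (E7.5 null 1) to 504 (E7.5 WT 3) for the interaction, 0 to 2 (E6.5 WT 3) at E6.5 between null and WT, and 26 (EpiSC null 2) to 159 (EpiSC WT 8) in EpiSCs. For EpiSCs, no paired analysis was possible because the lines share no numbers between genotypes.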
